A study of Mus musculus with 6 samples.

Results

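The genes of creatine and calcium futile cycling were described in inguinal adipose tissue (iAT) of mice at postnatal day 6, in 3 wild-type samples and 3 samples in which *Npffr1* was ablated (Npffr1-KO), a gene that encodes a receptor of neuropeptide FF. The 10 genes were chosen by symbol for their role, not for their values, and all 10 were among the 19831 genes listed. They are *Gatm*, *Gamt* and *Slc6a8* for the making and import of creatine, *Ckb*, *Ckmt1*, *Ckmt2* and *Alpl* for its phosphorylation and dephosphorylation, and *Atp2a1*, *Atp2a2* and *Sln* for calcium pumping. RNA was extracted from whole tissue with TRIzol and sequenced. The labels give no treatment, strain or sex, and do not say in which cells *Npffr1* was deleted or whether each sample was 1 animal.

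In a futile cycle a reaction that spends ATP is coupled to one that undoes it, so that the energy leaves as heat. In the creatine cycle, creatine kinases phosphorylate creatine at the cost of ATP, and a phosphatase removes the phosphate again. In the calcium cycle, SERCA pumps move calcium into the endoplasmic reticulum at the cost of ATP while calcium leaks back through release channels. Both cycles are known as sources of heat in fat that do not need UCP1, the uncoupling protein of brown and beige adipocytes. SERCA1 and its inhibitor sarcolipin are also abundant in skeletal muscle, where the same cycle serves muscle heat production.

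Sequences are shown for the 3 genes whose reads per library the results turn on. The promoters of *Atp2a1* and *Ckmt2* come from the RefSeq table of GRCm38.p6, in which 7 of the 10 genes had an entry, and the coding sequence of *Sln* comes from GENCODE M21 on GRCm38. For *Atp2a1* the bases before the first annotated transcript are given, chr7:126463109-126463323 on the minus strand, and for *Ckmt2* the 250 bases before the start, chr13:91876886-91877135 on the minus strand. Capitals mark E-boxes, CANNTG, the motif of bHLH factors such as the myogenic ones, which reads alike on both strands.
Atp2a1 promoter: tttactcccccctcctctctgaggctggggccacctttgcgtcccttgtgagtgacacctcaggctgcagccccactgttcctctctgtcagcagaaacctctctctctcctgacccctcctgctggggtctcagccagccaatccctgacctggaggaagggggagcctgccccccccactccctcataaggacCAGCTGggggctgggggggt
Ckmt2 promoter: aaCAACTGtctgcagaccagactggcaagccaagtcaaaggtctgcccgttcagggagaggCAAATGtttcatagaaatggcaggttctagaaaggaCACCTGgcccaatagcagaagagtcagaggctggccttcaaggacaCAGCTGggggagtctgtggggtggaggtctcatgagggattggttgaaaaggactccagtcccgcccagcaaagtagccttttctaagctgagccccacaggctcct
The *Ckmt2* window held 4 E-boxes and the *Atp2a1* window 1. Among 32851 promoters, 66.2% held at least 1 E-box in the 250 bases before the start, so that its presence sets neither gene apart. The other motifs searched on both strands were TATAAA, found in 12.4% of promoters, AAGGTCA, found in 4.08%, and a loose MEF2 box, found in 3.20%. The loose box allowed any 4 bases in its middle, so its share is not one of MEF2 sites alone. None of these motifs lay in either window. The coding sequence of *Sln* lies in 1 of its 2 exons, at chr9:53853473-53853568 on the plus strand, and encodes a peptide of 31 amino acids. Its start and stop codons are in capitals.
Sln coding sequence: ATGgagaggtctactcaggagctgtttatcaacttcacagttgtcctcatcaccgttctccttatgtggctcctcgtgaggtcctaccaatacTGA

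The authors deposited 1 value per gene and genotype, a read count normalized for library size. Summed over genes they came to 23137343 for wild-type and 23640005 for Npffr1-KO. Neither value is a mean over the libraries of its genotype, because their ratio is drawn towards 1 in genes with few reads, and a genotype without any read still has a value above 0. The mean of both values, however, is the mean over all 6 libraries, and below 100 normalized counts it could be split into whole reads per library. Of 7612 genes below that level, 7488 had exactly 1 matching combination of reads. The libraries are lettered A to C for wild-type and D to F for Npffr1-KO, and these letters are not tied to sample numbers. The library size factors lay between 0.916 and 1.04. *Npffr1* itself had 1, 0 and 5 reads in wild-type against 0 in each Npffr1-KO library. Its groups overlapped, with a two-sided exact permutation p of 0.4. The wild-type mean was 1.93-fold a floor that allows 3 reads over the Npffr1-KO libraries together. The 6 wild-type reads carry an exact 95% Poisson interval of 2.20 to 13.1. Its low end is under 3 reads, so 1.93 is not a lower limit. Library C held 5 of these 6 reads, and without it the wild-type mean was under the floor. The mean was 2.43-fold the floor without library A and 2.90-fold without library B. Such floors and counting intervals cover counting error only.

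Library D stood apart from the other 5 by transcripts of skeletal muscle. Over the 12 skeletal muscle markers with reads worked out, the sum was 863 normalized counts in library D and between 137 and 159 in the other libraries. Of the 12, 9 were highest in D, and the share of all genes that were highest in D is not given here. *Ckm*, the muscle creatine kinase, had 2, 3 and 2 reads in wild-type against 215, 1 and 6 in Npffr1-KO. *Myh1*, a fast myosin, had 2, 6 and 4 reads in wild-type against 289, 0 and 0 in Npffr1-KO. Other markers of the list, also picked after their values were seen, did not follow. *Tnnt1* had 63, 40 and 55 reads in wild-type against 60, 43 and 50 in Npffr1-KO, and *Mb* had 14 reads in library D and 21 in library F. Of 3827 genes with a mean of at least 5, 27 had over 50% of their normalized counts in library D, against 3 to 9 genes in each other library. Adipocyte transcripts were abundant, the 9 markers having between 3864 and 156285 normalized counts in wild-type. The highest was *Fabp4*, a fatty acid carrier, with 156285 in wild-type against 173188 in Npffr1-KO. Which fat depot was sampled rests on the labels, as no other depot was compared.

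In the deposited values, the creatine and calcium cycling genes covered a wide range of levels, with abundant isoforms beside rare ones. Divided by gene length, *Ckb*, the cytosolic brain-type creatine kinase, was the highest with 1030 normalized counts per kilobase in wild-type against 1052 in Npffr1-KO. *Atp2a2*, which encodes the widely expressed pump SERCA2, followed with 878 and 848 per kilobase. *Gamt*, *Gatm* and *Slc6a8* came next, with wild-type levels of 544, 376 and 224 per kilobase, and *Alpl*, the tissue-nonspecific alkaline phosphatase, had 77.2. The muscle pump gene *Atp2a1* had 17.0 and *Sln* 8.90 per kilobase in wild-type. Both mitochondrial creatine kinases were near the floor of the data. From the reads per library described below, the wild-type means were 12.1 per kilobase for *Atp2a1*, 5.50 for *Sln*, 0.619 for *Ckmt1* and 0 for *Ckmt2*. The orders of the remaining genes come from 1 value per genotype, so neighbours such as *Ckb* and *Atp2a2*, which differed by 1.17-fold in wild-type, could not be set against a replicate spread.

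**Figure D1:**
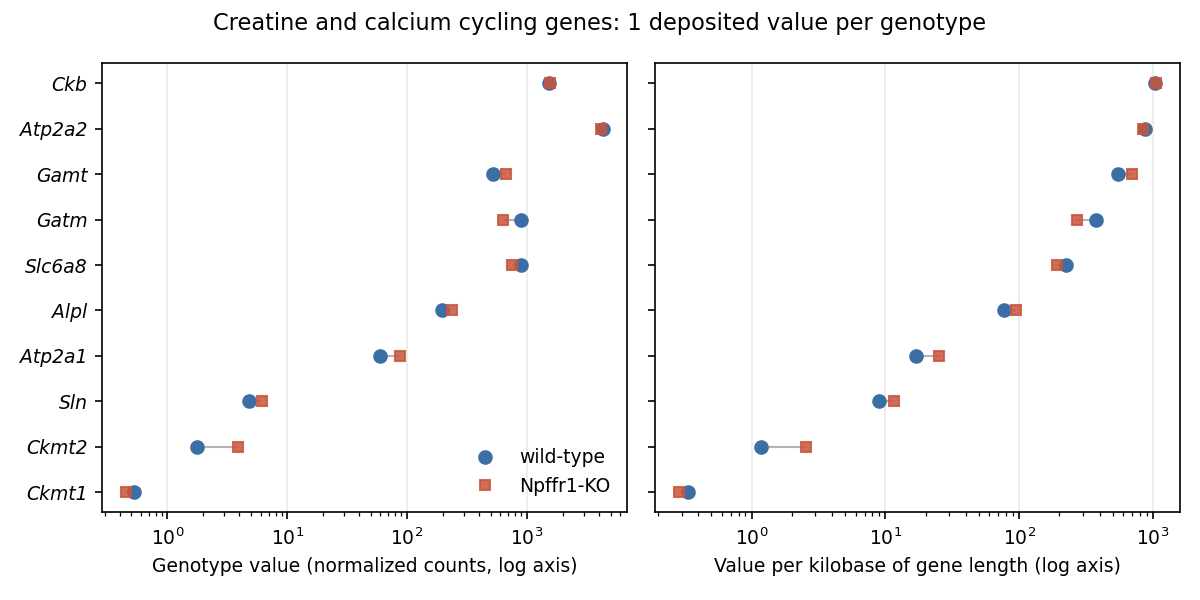
The 10 genes are drawn with their wild-type value (blue circles) and Npffr1-KO value (red squares), as normalized counts on the left and per kilobase of gene length on the right, both on log axes. *Ckb* and *Atp2a2* lead per length, *Ckmt2* and *Ckmt1* are last, and the gap between genotypes is small beside the range over genes.

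In the deposited values, none of the genes with a mean of 10 or more differed by 1.5-fold between the genotypes. Of the 10 genes, 7 reached a mean of 10 normalized counts, and 0 of these 7 differed by 1.5-fold or more. Among all 15309 genes above that mean, 5.89% did, 2.78% being higher and 3.12% lower in Npffr1-KO. With so few genes, a count of 0 is near what that share gives. At a lower threshold, a ratio of 5 to 4, 3 of the 7 genes were past it (*Gatm*, *Gamt* and *Atp2a1*), against 23.7% of all genes. The library means of *Atp2a1*, which are not drawn towards 1, lay further apart than its deposited values and turned without library D, as given below. The log2 ratios of the 7 genes ranged from -0.48 to 0.57 with a median of 0.03, that of *Ckb*, beside a median of 0.01 over all 15309 genes. No test was possible on 1 value per genotype.

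Among the genes of creatine supply, the enzymes of the first and the second step differed in direction. *Gatm*, which makes the creatine precursor guanidinoacetate from arginine and glycine, had 887 normalized counts in wild-type against 636 in Npffr1-KO, 1.39-fold lower. *Gamt*, which methylates guanidinoacetate to creatine, had 522 and 669, 1.28-fold higher in Npffr1-KO. *Slc6a8*, the creatine importer of the plasma membrane, had 892 and 758, 1.18-fold lower. The level of *Gamt* per length over that of *Gatm* was thus 1.45-fold in wild-type and 2.58-fold in Npffr1-KO. Ratios over the whole table varied with gene length, with a median log2 ratio of 0.27 among genes as short as *Sln* and -0.10 among genes as long as *Atp2a2*. Relative to genes of like length the log2 ratio of *Gamt* went from 0.36 to 0.15, that of *Gatm* from -0.48 to -0.54. In whole tissue, a change in the number of cells of a type cannot be told apart from a change of RNA per cell.

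The abundant kinase and the phosphatase of the cycle differed by 1.02-fold and 1.23-fold. *Ckb* had 1522 normalized counts in wild-type against 1555 in Npffr1-KO, a log2 ratio of 0.03. Transcripts of *Ckb* share 17.5% of their 31-base sequences with other genes, above all the annotated gene *Gm12892*, so some of its reads may have been split with copies. *Alpl*, whose product removes the phosphate from phosphocreatine, had 195 and 239, 1.23-fold higher in Npffr1-KO. Reads per library could not be worked out for *Ckb*, *Alpl*, *Gatm*, *Gamt*, *Slc6a8* and *Atp2a2*, each with a mean over 100, and their spread between libraries is not known here.

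*Ckmt2*, the sarcomeric mitochondrial creatine kinase, was the gene with the largest ratio of the 10, at a very low level. Its deposited values were 1.77 in wild-type against 3.88 in Npffr1-KO, 2.19-fold higher but below the mean of 10. The reads were 0, 0 and 0 in wild-type against 10, 4 and 3 in Npffr1-KO. Every Npffr1-KO library therefore had reads and no wild-type library did. The Npffr1-KO mean was 5.65 ± 3.47 normalized counts (SD, n = 3). It was 5.77-fold a floor that allows 3 reads over the wild-type libraries together, a fold that leaves out the counting error of the Npffr1-KO reads. These 17 reads carry an exact 95% Poisson interval of 9.90 to 27.2, so the fold could be lower. In an exact permutation test, two-sided, the p was 0.1, the smallest that 3 against 3 samples can give. Groups that did not overlap, with Npffr1-KO higher, were found in 4.19% of the 7488 genes with reads per library. In limma over all 7489 genes without a filter on the mean, the log2 difference was 2.61 ± 0.79 (SE) with an unadjusted p of 0.0029 and an adjusted p of 0.23, which did not pass 0.05. In that fit 10 genes, 0.134%, passed and 609, 8.13%, had an unadjusted p under 0.05. Library D held 10 of the 17 reads and carried the muscle transcripts described above, whose part in this result was not tested. Without library D the Npffr1-KO mean was 3.66 normalized counts, 3.73-fold the same floor. It rests on 7 reads, for which no counting interval was worked out, so this fold is not a lower limit.

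*Ckmt1*, the ubiquitous mitochondrial creatine kinase, was at the floor of detection. It had 0, 2 and 1 reads in wild-type and 0 in every Npffr1-KO library, which gave an exact permutation p of 0.4. Both genotypes were at or under the floor of 3 reads, so no fold is given. Mitochondrial creatine kinase transcripts thus amounted to 20 reads over all 6 libraries, 17 of *Ckmt2* and 3 of *Ckmt1*. The genes share 9 of their 31-base sequences, 0.618% of those of *Ckmt2*.

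Of the calcium pumps, the abundant one differed by 1.04-fold between the genotypes. The rare one was highest in library D in the combination of reads used. *Atp2a2* had 4350 normalized counts in wild-type against 4198 in Npffr1-KO, a log2 ratio of -0.05, and was higher than 95.5% of listed genes in wild-type. *Atp2a1*, which encodes SERCA1, had deposited values of 59.2 and 87.6, 1.48-fold higher in Npffr1-KO and the nearest of the 7 genes to the 1.5-fold line. Its reads were 61, 36 and 33 in wild-type against 267, 34 and 20 in Npffr1-KO. Library D alone held 58.4% of its normalized counts, while library E lay within the wild-type range and library F below it. The wild-type mean was 42.3 ± 14.4 and the Npffr1-KO mean 104 ± 132 normalized counts (SD, n = 3 each), and the groups overlapped, with a two-sided exact permutation p of 0.9. Without library D the direction turned, wild-type being 1.51-fold higher than the Npffr1-KO mean of 28.1. In limma over 2967 genes the log2 difference was 0.50 ± 0.63 (SE) with an adjusted p of 0.80, and without library D it was -0.56 with an adjusted p of 0.65.

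The reads of *Atp2a1* rest on a choice, because a second combination also matched its mean. That combination had 11, 146 and 21 reads in wild-type against 85, 71 and 103 in Npffr1-KO. For a gene as variable as *Atp2a1*, the deposited log2 ratio should be a reduced part of the log2 ratio of the library means. Among 14 comparison genes of like level and spread this part ran from 0.0601 to 0.787. It was 0.434 for the combination used and 0.929 for the other, which was therefore set aside. With the other combination the log2 difference in limma was 1.41 and the adjusted p 0.37, so that neither passed 0.05. The choice was made after the values were seen.

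*Sln*, which encodes sarcolipin, the small membrane peptide that uncouples SERCA from calcium transport, was likewise highest in library D. Its deposited values were 4.77 in wild-type against 6.20 in Npffr1-KO. The reads were 1, 5 and 3 in wild-type against 25, 0 and 0 in Npffr1-KO. Every wild-type library thus had *Sln* reads, and among the Npffr1-KO libraries D alone did, with 73.2% of its normalized counts. The wild-type mean was 2.95 ± 1.96 and the Npffr1-KO mean 8.03 ± 13.9 normalized counts (SD, n = 3 each), with an exact permutation p of 1.0. Without library D, 0 *Sln* reads remained in Npffr1-KO. The limma log2 difference without a filter on the mean was -0.29 ± 1.03 (SE), with an adjusted p of 0.94, opposite in sign to the ratio of the deposited values. *Sln* was among the 27 genes with over 50% of their counts in library D. The part of the muscle transcripts of library D in the values of *Atp2a1* and *Sln* was not tested beyond leaving that library out.

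**Figure D2:**
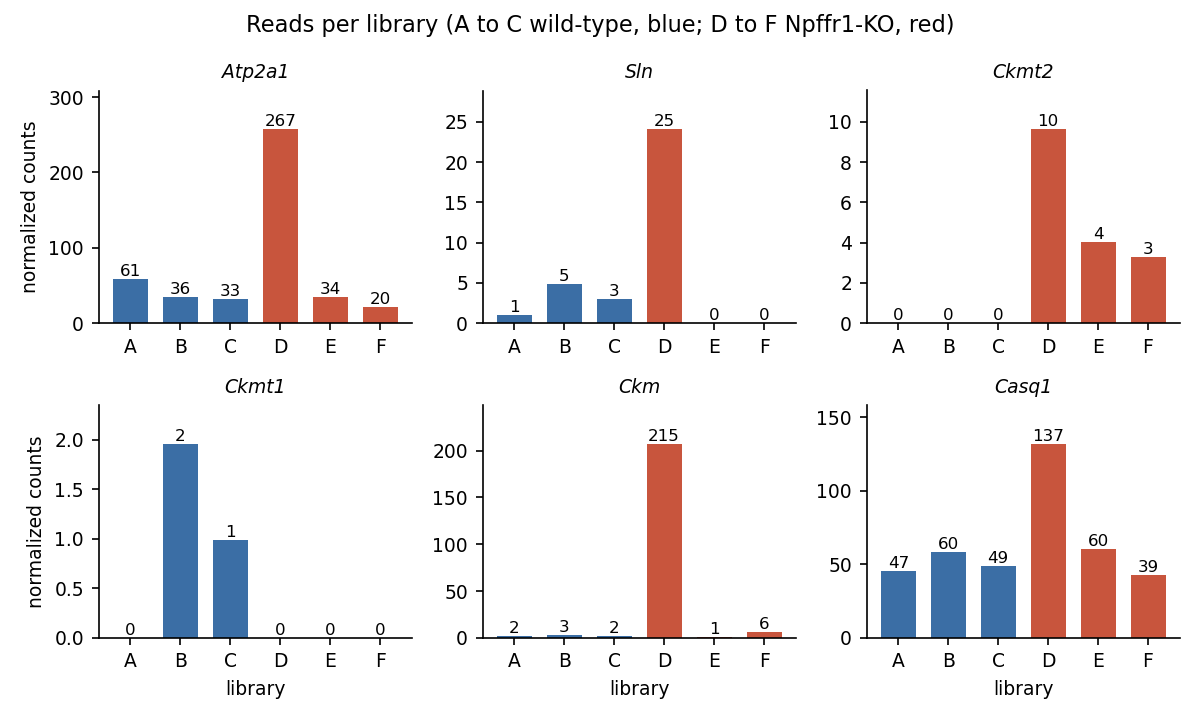
Bars give normalized counts in each library for *Atp2a1*, *Sln*, *Ckmt2*, *Ckmt1*, *Ckm* and *Casq1*, wild-type libraries A to C in blue and Npffr1-KO libraries D to F in red, with the number of reads above each bar. *Atp2a1*, *Sln*, *Ckm* and *Casq1* are highest in library D by far, while *Ckmt2* has reads in all 3 Npffr1-KO libraries and in no wild-type library. *Atp2a1* is drawn with the combination of reads used.

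Around the creatine cycle, 12 of 13 neighbouring genes were within 1.5-fold, the listed mitochondrial carriers and adrenergic receptors among them. Of 13 neighbouring genes, all with means of 10 or more, 1 was past 1.5-fold and higher in Npffr1-KO, and 0 were lower. Among all genes 2.78% were higher and 3.12% lower, and with so few genes these counts are near what such shares give. The median log2 ratio of the 13 genes was 0.24, and 0.12 relative to genes of like length. The most abundant were *Slc25a5* and *Slc25a4*, the ADP/ATP carriers that supply mitochondrial ATP to creatine kinase, and *Vdac2*, a channel of the outer membrane. *Slc25a5* had 6088 normalized counts in wild-type against 7780 in Npffr1-KO, *Slc25a4* had 4732 and 5946, and *Vdac2* had 4460 and 5254. The gene past 1.5-fold was *Ckm*, with 27.5 and 46.4, whose reads lay almost wholly in library D. For *Ckm* limma gave a log2 difference of 2.17 ± 1.36 (SE) with an adjusted p of 0.56, and without library D it was 0.26 with an adjusted p of 0.97. *Esrra*, a nuclear receptor of mitochondrial genes that was picked after its values were seen, had 876 and 1293, 1.48-fold higher in Npffr1-KO. *Adra1d*, an alpha-1 adrenergic receptor picked in the same way, had 242 and 173, 1.39-fold lower.

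Calcium handling genes showed no common direction. Of the 23 genes listed, 22 were in the table and 21 had a mean of at least 10. None of the 21 was past 1.5-fold, against 5.89% of all genes, and with so few genes a count of 0 is near what that share gives. Of the 22, 12 were higher and 10 lower, beside 51.2% higher among all genes with a mean of at least 10. The median log2 ratio was 0.01. *Calr*, the luminal calcium buffer calreticulin, had 13463 normalized counts in wild-type against 16079 in Npffr1-KO. *Fkbp1a*, a partner of release channels, had 9683 and 10139. *Atp2a3*, the SERCA3 gene, had 3976 and 4205, a level per length of 870 in wild-type that was close to the 878 of *Atp2a2*.

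Genes of this list with reads per library were tested in limma, and 0 of 9 passed an adjusted p of 0.05. In that fit 0 of 2967 genes passed, 366 of them, 12.3%, had an unadjusted p under 0.05, and limma without a trend called 1. The genes named next were picked after their values were seen. *Ryr2*, the cardiac-type calcium release channel, had 93, 90 and 94 reads in wild-type against 64, 59 and 73 in Npffr1-KO. Its groups did not overlap, as in 7.17% of genes with Npffr1-KO lower, and its log2 difference was -0.44 ± 0.22 (SE) with an adjusted p of 0.43. *Pln*, which encodes phospholamban, the SERCA2 inhibitor related to sarcolipin, had 35, 32 and 28 reads in wild-type against 29, 13 and 17 in Npffr1-KO, with an adjusted p of 0.45. *Casq2*, the cardiac-type calsequestrin, had 39, 75 and 41 reads in wild-type against 43, 22 and 29 in Npffr1-KO, with an adjusted p of 0.48. *Casq1*, the skeletal calsequestrin, had 47, 60 and 49 reads in wild-type against 137, 60 and 39 in Npffr1-KO, and its log2 difference was 0.46 with library D and 0.00441 without it, with adjusted p of 0.65 and 0.998 in limma. *Trdn*, the junctional protein triadin, had 1, 0 and 1 reads in wild-type against 118, 0 and 0 in Npffr1-KO, and its log2 difference went from 1.62 to -0.66 without library D. *Ryr1*, the skeletal release channel, had 45, 29 and 20 reads in wild-type against 64, 35 and 26 in Npffr1-KO. *Mrln*, which encodes the muscle SERCA inhibitor myoregulin, had 1, 0 and 4 reads in wild-type against 0, 0 and 5 in Npffr1-KO. Of the 10 genes of this list with reads worked out, 5 were highest in library D and *Mrln* had no read there. The share of all genes that were highest in library D is not given here, so this count has no background beside it.

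**Figure D3:**
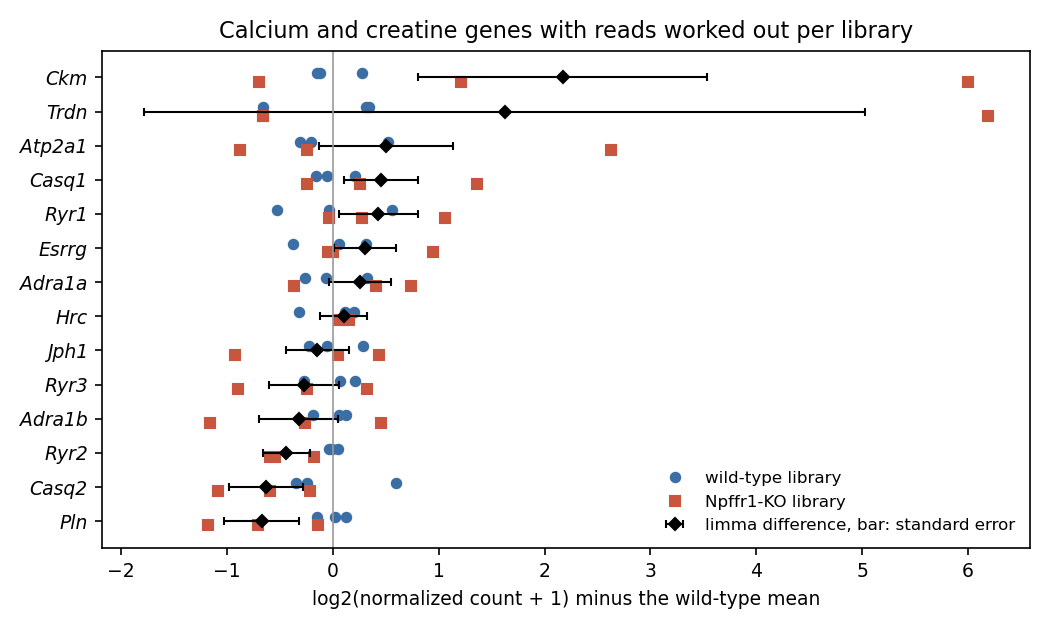
Each row is a calcium or creatine gene with reads per library, with the 3 wild-type libraries (blue circles) and 3 Npffr1-KO libraries (red squares) on the scale of log2(normalized count + 1) minus the wild-type mean, and the limma difference with its standard error (black). *Ckm*, *Trdn* and *Atp2a1* have 1 Npffr1-KO library far to the right of all others, and no gene shown passed an adjusted p of 0.05. *Atp2a1* is drawn with the combination of reads used.

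Thermogenic markers had larger ratios than the cycling genes, and the difference between these lists was not tested. Of 10 thermogenic markers with a mean of at least 10, 7 were past 1.5-fold and higher in Npffr1-KO and 0 were lower, against 2.78% higher and 3.12% lower of all genes, with a median log2 ratio of 1.47. Of the 11 markers listed, *Dio2* and *Elovl3* alone had reads per library, and both were highest in library D. *Dio2* had 13, 11 and 51 reads in wild-type against 54, 26 and 19 in Npffr1-KO, and *Elovl3* had 3 reads in D and 0 elsewhere. Without library D the Npffr1-KO mean of *Dio2* was 23.5 normalized counts against 24.6 in wild-type, and *Elovl3* had no read left. *Ucp1* had 438 normalized counts in wild-type against 1287 in Npffr1-KO, and *Cidea*, a lipid droplet protein of thermogenic adipocytes, had 304 and 1427. Against these, *Ckb* differed by 1.02-fold, *Alpl* by 1.23-fold and *Atp2a2* by 1.04-fold, the last being lower in Npffr1-KO. Of 9 adipocyte markers, 0 were past 1.5-fold, with a median of 0.10. Of 20 skeletal muscle markers, 19 had a ratio above 0 and 7 of the 16 with a mean of at least 10 were past 1.5-fold and higher, against 2.78% of all genes, their sum over the list being 1962 normalized counts in wild-type against 2696 in Npffr1-KO. *Acta1*, skeletal muscle actin, had 171 and 410. For the 12 of these markers with reads worked out, the sum in Npffr1-KO exceeded that in wild-type with library D (387 against 157) and not without it (148). Medians were -0.29 for 6 smooth muscle markers, -0.48 for 7 Schwann cell markers, -0.39 for 6 endothelial markers and -0.24 for 6 neutrophil markers. Epithelial markers had a median of 0.13 and bone and cartilage markers of -0.58, over 2 genes each. The part of these cell types in the values of the cycling genes was not tested.

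**Figure D4:**
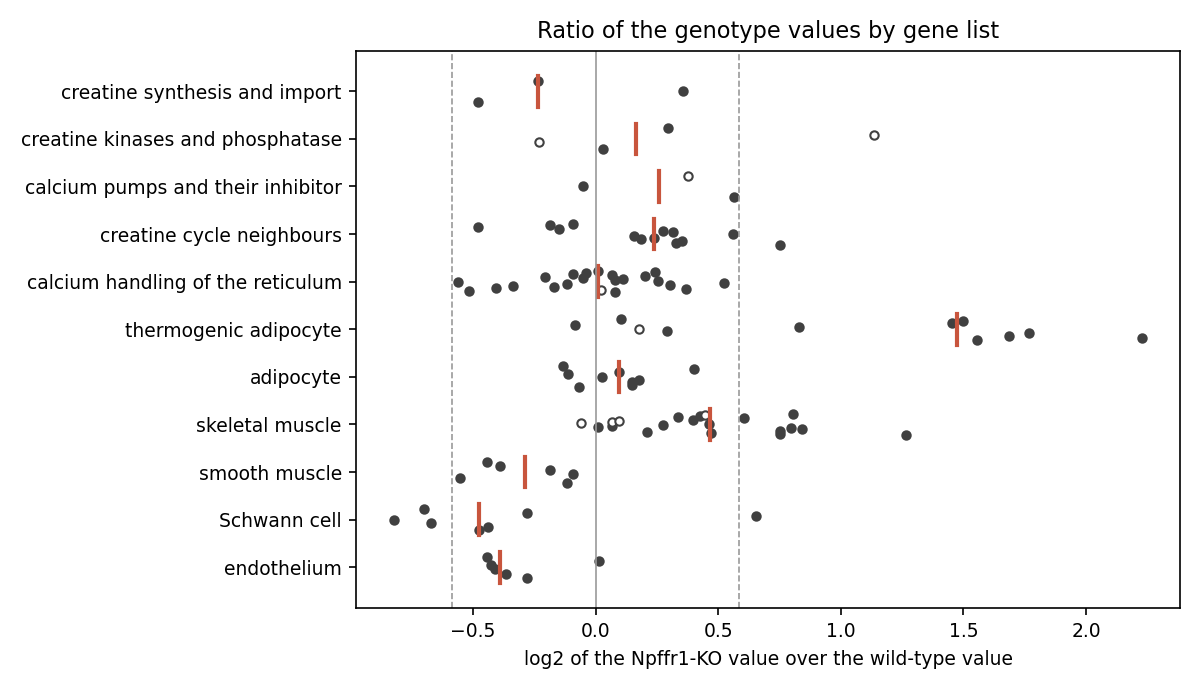
Points are the log2 ratio of the Npffr1-KO value over the wild-type value for each gene of a list, filled where the mean was at least 10, and red lines mark the median of the filled points. The creatine and calcium cycling genes lie within the dashed 1.5-fold lines except *Ckmt2* (open circle), while most thermogenic markers lie to the right of them.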

How the data were processed

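Sequenced iAT RNA of 3 wild-type and 3 Npffr1-KO samples was grouped by the labels. The authors deposited normalized read counts, a signal given as 1 value per gene and genotype, with gene length. Per the submitters' processing notes they used Bowtie2, RSEM and DESeq2. Their versions and the genome build are given in none of the sources used here. Their log2 fold changes, p-values and adjusted p-values were not used. A second table with 90 genes of the first was not used. The members, gene lists and tests were chosen with earlier results of these data known.

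Ratios were called at 1.5-fold and a mean of at least 10. Genes with a single read gave the value of 1 read in each library and, by the genotype column that was higher, its genotype. All whole-read combinations that matched the mean to 15 significant digits were enumerated below a mean of 100. In 7367 genes simulated for this search, 7129 had 1 combination and 100% of these were right. The direction of the reads was that of the deposited values in 5277 of 5277 genes that differed by over 0.1 on the log2 scale. Reads divided by size factors were tested with limma 3.58.1 (R 4.3.3, trend, two-sided) on log2(value + 1) for genes with a mean of at least 10, with Benjamini-Hochberg adjustment at 0.05. limma stood in for a count test because the deposited values are not counts per sample, and no count test was run on the whole reads worked out from them. Data for that comparison were simulated over 2967 genes, all with a dispersion of 0.05. In these data limma called 100% of log2 changes of 2, 54% of changes of 1 and 15 of 2767 unchanged genes. How often it would call such changes in a gene as variable as *Atp2a1*, with an SE of 0.63, was not tested. Single genes were also compared by exact permutation tests. Nothing says that samples came from separate animals, so p-values measure only the spread between these samples. Shared 31-base sequences were counted on GENCODE M21 transcripts.

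Named genes are the 10 members, *Npffr1*, *Ucp1*, and of other lists at most the 3 highest by mean plus those past 1.5-fold. Names outside this rule are marked in the text, and markers of library D were picked after their values were seen. The alternatives were other pseudocounts, thresholds and filters, centring on the median gene or on genes of like length, recomputed size factors, limma without trend, and leaving out each library.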

Additional observations from a re-analysis of the deposited data

How the results depend on the processing

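The number of the 10 genes past the fold was 0. It was 3 at a ratio of 5 to 4, past which 23.7% of all genes lay, and 1 with no filter on the mean, the gene being *Ckmt2*, and 0 at 2-fold and with a mean of at least 50. The log2 ratio of *Atp2a1* went from 0.57 to 0.59 when centred on genes of like length, past the 1.5-fold line, and that of *Ckmt2* from 1.13 to 0.24 with a pseudocount of 10. The limma difference of *Atp2a1* turned from 0.50 to -0.56 without library D, with or without the filter on the mean, and its leave-one-out range was -0.56 to 1.19. Over its 18 alternatives the adjusted p ran from 0.37 to 0.96. That of *Sln*, -0.29 without a filter, turned to 0.48 without library E and to 0.48 without library F, and to 0.066 without wild-type library B, and its leave-one-out range was -1.84 to 0.48. *Ckmt2* stayed between 2.21 and 2.87 with each library left out, with adjusted p from 0.38 to 0.61. These fits without a filter and the other combination of *Atp2a1* were chosen after seeing the data. The count of genes passing limma, 0 of 2967, was 10 of 7489 with no filter, 2 with a pseudocount of 5, 2 with recomputed size factors, 1 without trend, and 0 to 4 with a library left out. *Atp2a1*, *Ckmt1*, *Ckmt2* and *Sln*, the members with reads per library, passed in none of these fits that held them. No paired analysis was possible because the recovered libraries carry no replicate number. Genes with a mean over 100 have no value per library here, and differences of a few reads in *Ckmt1*, *Ckmt2* and *Sln* are at the limit of the depth.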
